A study of Mus musculus with 8 samples.

Results

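Neuropeptides are cut from larger precursor proteins that enter the secretory pathway, are cleaved at basic residues by prohormone convertases and are stored in dense-core vesicles, which kinesin motors carry along the axon to release sites. Sympathetic neurons release such peptides together with noradrenaline, and neuropeptide Y is the best known of these co-transmitters. The precursor genes described here are Npy, Cartpt, Pnoc, Penk, Vip, Gal, Sst, Tac1, Adcyap1 and Nts. They were taken by symbol from the count table, and all 10 of 10 had a row of their own among its 23827 rows. Of these, 9 passed the filter on low counts that left 14592 rows for testing, and Tac1 did not.

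The libraries came from superior cervical ganglia of C57Bl6/n mice on postnatal day 1. All animals were homozygous for a floxed allele of KIF1Bb (KIF1Bb fl/fl), which encodes a kinesin-3 motor. The 4 control animals, titled WT in the labels, carried no Cre (DBHcre -/-), and the 4 conditional knockout animals (cKO) were DBHcre +/-, with Cre driven by the promoter of dopamine beta-hydroxylase, a gene of noradrenergic cells. Each library came from the ganglion pair of 1 animal. No group carried Cre without the floxed allele, so effects of the deletion and of Cre itself cannot be told apart.

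Total counts ran from 16214912 to 18114418 per library. Kif1b had 1220 ± 222 CPM (counts on a common scale between libraries; SD, n = 4) in control and 260 ± 52.7 CPM (SD, n = 4) in cKO ganglia, lower in each of the 4 cKO libraries than in each control. The noradrenergic genes Th and Dbh stood at 1340 ± 107 and 2420 ± 195 CPM in control ganglia (SD, n = 4). The summed level of 12 noradrenergic neuron markers ran from 10500 to 11100 CPM in control and from 8870 to 9610 CPM in cKO libraries. Of 10 fibroblast markers 5 rose, and of 12 vessel markers 5 rose, while none of 10 glial, 12 leukocyte, 9 sensory neuron, 10 muscle and cartilage or 5 cholinergic markers tested passed. The passing genes with the largest changes were Pdgfra (log2 fold change 1.02), Ogn (0.97), Col1a2 (0.67) and Prrx1 (0.66) of fibroblasts and Notch3 (0.79), Pdgfrb (0.74), Eng (0.70) and Tek (0.70) of vessels. The smallest p belonged to Ptprc among leukocyte, Prrxl1 among sensory neuron, Col11a1 among muscle and cartilage and Slc5a7 among cholinergic markers. Their log2 fold changes were 0.35, 1.35, 0.45 and -0.94 (edgeR adjusted p = 0.0553 for Slc5a7). The 5 tested cholinergic markers did not move together: 3 had positive and 2 negative log2 fold changes, with a median of 0.235. Of 7 chromaffin and glomus markers 1 rose and 1 fell, Cox4i2 and Olfr78. Summed fibroblast markers ran from 5900 to 7600 CPM in control and from 8170 to 12000 CPM in cKO libraries, summed vessel markers from 309 to 373 and from 495 to 595 CPM, and summed glial markers from 869 to 1110 and from 1140 to 1300 CPM. Control 1 and cKO 1 had the highest sums of muscle and cartilage markers, at 141 and 273 CPM against 61.6 to 87.9 CPM in the other libraries. Control 4 and cKO 4 had the highest sums of sensory neuron markers, at 104 and 235 CPM against 49.1 to 74.5 CPM in the others. In whole ganglia, fewer cells of a type and less RNA per cell cannot be told apart.

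Promoter sequences from RefSeq (GRCm38.p6) were matched by symbol for 8 of the 10 precursors. Pnoc and Penk were not matched and not searched. Several neuropeptide genes are textbook targets of the cyclic AMP pathway, which acts through a palindrome bound by the CREB family, so the letters TGACGTCA, their shorter core TGACGT, which each palindrome also holds, and the AP-1 site TGAGTCA were searched on both strands in the 250 bases before each start site. Cartpt, the member with the most counts among those that rose, carries the palindrome. Its upstream stretch, chr13:99900684-99900933 on the minus strand, is shown 5′ to 3′ with the palindrome in capitals.
Cartpt: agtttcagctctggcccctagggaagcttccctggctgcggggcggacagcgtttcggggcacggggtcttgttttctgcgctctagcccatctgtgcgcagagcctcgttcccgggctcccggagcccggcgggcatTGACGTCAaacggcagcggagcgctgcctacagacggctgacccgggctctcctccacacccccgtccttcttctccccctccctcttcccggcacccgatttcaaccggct
The palindrome began 112 bases before the start site of Cartpt. It was found in 1.55% of 32851 promoter windows of the same length and in 2 of the 8 members, Cartpt and Sst. The core TGACGT was found in 6.47% of windows and in 4 of the 8 members, which also took in Vip and Adcyap1. The lines below place these 4 matches side by side, matched letters in capitals, to show that the flanking bases differ.
Cartpt: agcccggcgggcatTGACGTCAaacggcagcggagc
Sst: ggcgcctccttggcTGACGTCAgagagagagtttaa
Vip: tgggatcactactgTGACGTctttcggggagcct
Adcyap1: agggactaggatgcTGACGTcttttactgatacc
These stretches lie at chr13:99900774-99900809 and chr16:23890871-23890906 on the minus strand and at chr10:5639125-5639158 and chr17:93198912-93198945 on the plus strand. Their matches begin 112, 48, 79 and 91 bases before the start site, and Adcyap1 has a further start site downstream whose window holds the same match. The AP-1 letters were found in 4.46% of windows and in 1 member, Nts. As described below, Cartpt rose, while Sst and Vip did not pass the test, so the letters were present in members of each kind.

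The comparison of cKO with control asked how deletion by this Cre altered the ganglion's transcripts. Of the 9 tested precursors 3 rose, Cartpt, Pnoc and Penk, none fell, and 6 did not pass an adjusted p below 0.05 in edgeR's quasi-likelihood test. Over all 14592 tested genes, 2.72% were called by the same rule, 1.60% higher and 1.12% lower. The precursors were chosen with earlier results of these data known, so this share cannot test them as a set. In these 3 precursors each cKO library lay above each control library, as in 6.00% of all tested genes. The log2 fold changes of the 9 precursors had a median of 0.14, 5 positive and 4 negative, beside a median of -0.000618 over all tested genes. At an unadjusted p below 0.05 stood 5 of the 9, which added Adcyap1, higher, and Npy, lower, beside 16.8% of all tested genes.

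**Figure D1:**
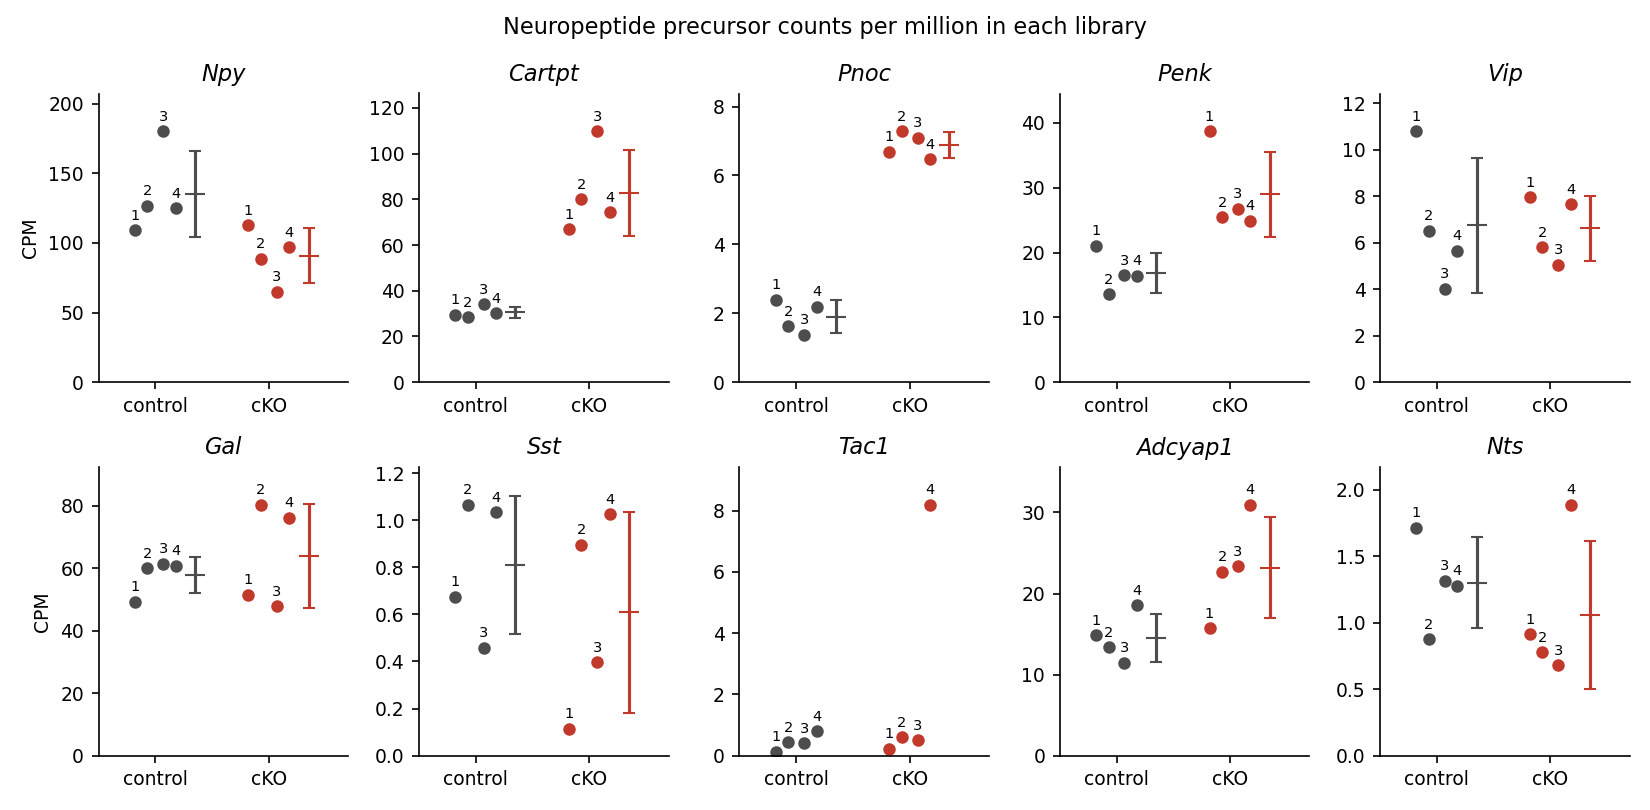
CPM of the 10 precursors in each library, with control in grey and cKO in red; points carry the animal's number, and the bars beside them are the mean ± SD (n = 4), left out for Tac1, which was not tested. The groups are apart in Cartpt, Pnoc and Penk, and a single library, cKO 4 at 8.20 CPM, stands high for Tac1.

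Npy encodes neuropeptide Y, the vasoconstrictor peptide stored with noradrenaline. It had 109, 127, 180 and 125 CPM in controls 1 to 4 and 113, 88.6, 64.9 and 97.0 CPM in cKO 1 to 4. In cKO 2, 3 and 4 it lay below all controls, but cKO 1 lay above control 1, so the groups overlapped. The log2 difference, cKO over control, was -0.58 with an SE of 0.19 and did not pass the test (edgeR adjusted p = 0.148). Of the alternatives run, voom with sample weights was the one that called Npy lower (adjusted p = 0.0211), a rule that called 4.50% of all tested genes lower.

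Gal encodes galanin, a peptide that sympathetic neurons are known to make more of after their axons are cut. Its level was 49.3, 60.1, 61.5 and 60.8 CPM in the controls and 51.5, 80.4, 47.9 and 76.2 CPM in the cKO libraries. The cKO libraries lay on both sides of the controls, with cKO 2 and cKO 4 above all of them and cKO 3 below. The log2 difference for Gal was 0.14 (SE 0.17, edgeR adjusted p = 0.773), and 2 SE on either side of it reached from -0.20 to 0.49.

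Cartpt encodes the precursor of the CART peptides, named for cocaine- and amphetamine-regulated transcript. Controls 1 to 4 held 29.5, 28.3, 34.0 and 30.2 CPM, and cKO 1 to 4 held 66.9, 80.1, 109.8 and 74.3 CPM. The controls were close to each other, and the lowest cKO library was well above the highest control. Cartpt rose by 1.44 on the log2 scale (SE 0.15, edgeR adjusted p = 0.00207), a fold of 2.71. With each library left out in turn its log2 fold change stayed between 1.27 and 1.52 and its adjusted p between 0.002 and 0.0144.

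Pnoc and Penk belong to the opioid precursor family. Pnoc encodes prepronociceptin, the source of nociceptin, which acts on the receptor encoded by Oprl1. Its level was 2.39, 1.63, 1.37 and 2.19 CPM in the controls, from 24 to 39 counts per library, and 6.69, 7.29, 7.10 and 6.47 CPM in the cKO libraries, from 117 to 125 counts. The cKO values lay within a narrow band above all controls. Pnoc had the largest log2 fold change of the 9 tested precursors, 1.86 (SE 0.20, edgeR adjusted p = 0.00188), a fold of 3.63, and with 1 library left out it stayed between 1.73 and 1.98 with an adjusted p of at most 0.0132. Fibroblast, vessel and glial marker sums were also higher in each cKO library than in each control, and their part in the rises of Cartpt and Pnoc was not tested.

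Penk encodes proenkephalin, which holds several copies of the enkephalins. It stood at 21.1, 13.6, 16.5 and 16.4 CPM in the controls and at 38.7, 25.5, 26.7 and 24.9 CPM in the cKO libraries. In each group the library of animal 1 was the highest, and the groups did not overlap. Penk rose by 0.78 on the log2 scale (SE 0.18, edgeR adjusted p = 0.0487), close to the threshold. Its call held without control 1 (adjusted p = 0.0258) and was lost without control 2 (adjusted p = 0.163), control 3 (0.0964), control 4 (0.147), cKO 1 (0.0816), cKO 2 (0.0776), cKO 3 (0.102) or cKO 4 (0.0551), with log2 fold changes from 0.59 to 0.90. Control 1 and cKO 1, its highest libraries, also had the highest muscle and cartilage sums. Without both of them the log2 fold change of Penk was 0.73 with an adjusted p of 0.019. The part of the fibroblast, vessel and glial markers, whose sums were apart in the same way, was not tested for Penk either. Penk overlaps a noncoding gene, A830012C17Rik, on the opposite strand, and the sources used here do not give whether counting used strand.

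**Figure D2:**
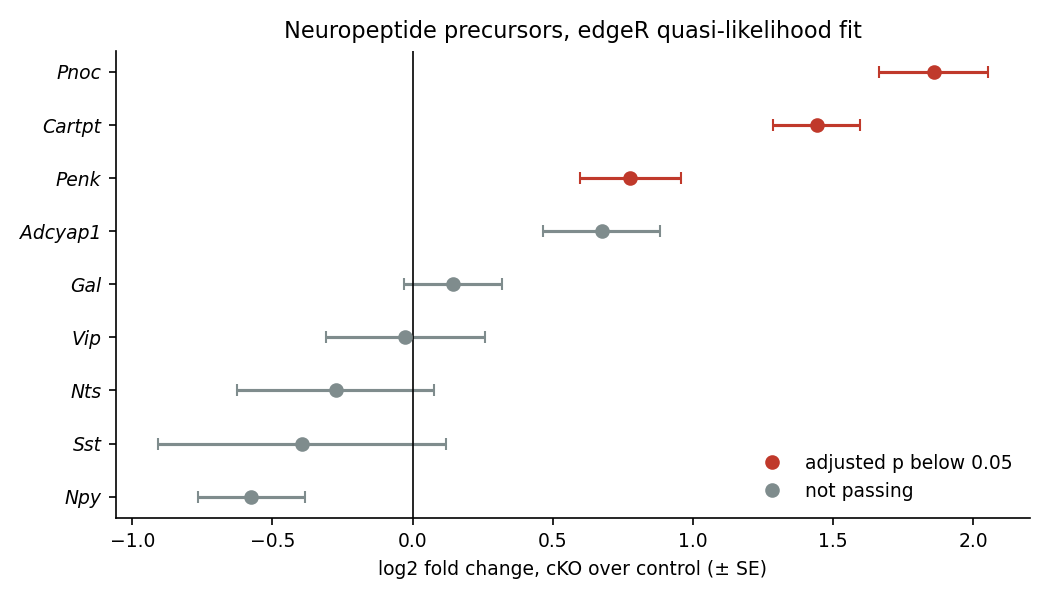
Log2 fold changes of the 9 tested precursors, cKO over control, with bars of ± 1 SE from edgeR; red points passed an adjusted p below 0.05. Pnoc, Cartpt and Penk lie to the right at 1.86, 1.44 and 0.78, and Npy lies lowest at -0.58.

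Adcyap1 and Vip encode PACAP and vasoactive intestinal peptide, related peptides of the secretin family. PACAP is a transmitter of the preganglionic input to sympathetic neurons, and vasoactive intestinal peptide marks cholinergic sympathetic neurons. Adcyap1 had 14.8, 13.4, 11.5 and 18.5 CPM in the controls and 15.7, 22.7, 23.4 and 31.0 CPM in the cKO libraries. The cKO 2, 3 and 4 libraries lay above all controls and cKO 1 among them. Its log2 difference of 0.67, with an SE of 0.21, did not pass (edgeR adjusted p = 0.126). The Wald test of DESeq2 called it higher (adjusted p = 0.0402), where 3.87% of genes were so called. Adcyap1 was highest in control 4 and cKO 4, the libraries with the highest sensory marker sums, and without both its log2 fold change was 0.64 (adjusted p = 0.237). Vip had 10.8, 6.52, 4.01 and 5.65 CPM in the controls and 7.94, 5.79, 5.05 and 7.66 CPM in the cKO libraries. The cKO values all lay within the range of the controls. The log2 fold change of Vip was -0.03 (SE 0.28, edgeR adjusted p = 0.983), and 2 SE on either side reached from -0.59 to 0.54, so a change of that size could not be told from none.

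Sst, Nts and Tac1, the precursors of somatostatin, neurotensin and the tachykinins substance P and neurokinin A, were sparse. Sst had 11, 17, 8 and 17 counts in the controls and 2, 15, 7 and 19 counts in the cKO libraries, with overlapping groups and a log2 difference of -0.40 (2 SE on either side from -1.42 to 0.63; edgeR adjusted p = 0.792). Nts had 28, 14, 23 and 21 counts in the controls and 16, 13, 12 and 35 counts in the cKO libraries, again overlapping, with a log2 difference of -0.28 (2 SE on either side from -0.98 to 0.43; edgeR adjusted p = 0.789). Changes within these intervals could not be told from none.

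Tac1, which sensory neurons express strongly, had 2, 7, 7 and 13 counts in the controls and 4, 10, 9 and 152 counts in the cKO libraries. The highest library of each group was that of animal 4, and cKO 4 stood apart at 8.20 CPM while the other 7 libraries lay between 0.123 and 0.790 CPM. Of 14 sensory neuron markers 9 were tested, and none passed. All 9 had positive log2 fold changes, which ran from 0.08 to 1.35. Mrgpra3, 1 of the 14, was at 0 in every library. The summed sensory markers ran from 49.1 to 104 CPM in control and from 56.5 to 235 CPM in cKO libraries, with cKO 4 at the top. Their part in the Tac1 counts was not tested. Without the filter Tac1 did not pass (edgeR adjusted p = 0.455). Calca, the precursor of the sensory peptide CGRP, was not in the sensory marker list and had only 100 counts over all libraries. Its log2 difference was -0.03 (SE 0.55, edgeR adjusted p = 0.989), a group value that does not give the level in cKO 4 alone.

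**Figure D3:**
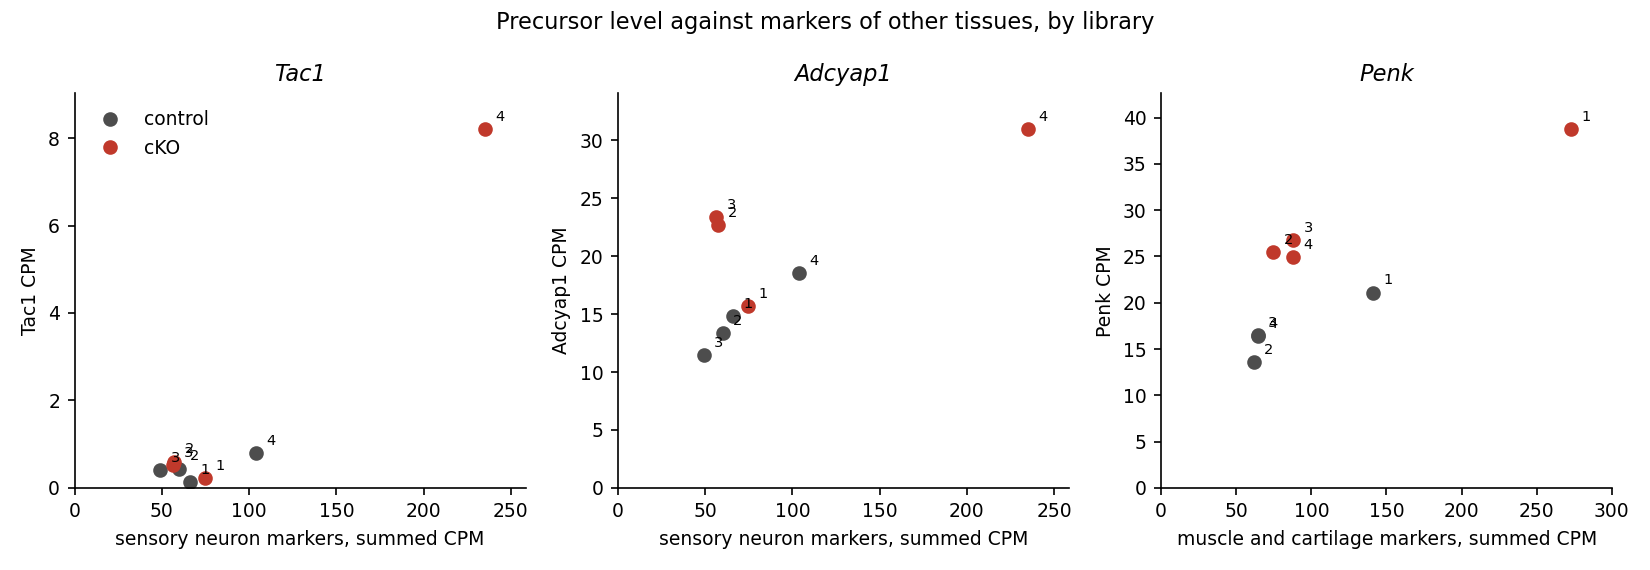
Level of Tac1, Adcyap1 and Penk in CPM (vertical axes) against the summed CPM of sensory neuron markers, for Tac1 and Adcyap1, or of muscle and cartilage markers, for Penk (horizontal axes), 1 point per library with the animal's number, control in grey and cKO in red. The cKO 4 library lies far out at 235 CPM of sensory markers, and cKO 1 at 273 CPM of muscle and cartilage markers.

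Each precursor was also set against the noradrenergic markers of its library. The log2 CPM of the precursor minus the mean log2 CPM of the 12 markers was compared over the libraries. Each marker counts alike in this mean, whatever its level, and of the 12 markers 1 fell and none rose. That mean was 8.37 ± 0.14 in control and 8.23 ± 0.12 in cKO libraries (SD, n = 4, log2 CPM; exact two-sided permutation p = 0.229). Relative to these markers Cartpt, Pnoc and Penk were higher in cKO libraries by 1.55, 1.97 and 0.90 on the log2 scale, in 4 of 4 libraries each. The exact two-sided permutation p was 0.0286 for each, the smallest that 70 assignments allow, and 0.0952 adjusted over the 10 precursors, so none passed. With so few precursors at this smallest p, the adjusted value could not fall below 0.05, so it decides nothing about them. Adcyap1 differed by 0.79 (exact permutation p = 0.0571, adjusted p = 0.143) and Npy by -0.44 (exact permutation p = 0.143, adjusted p = 0.286). The remaining precursors, Vip, Gal, Sst, Tac1 and Nts, had exact permutation p-values from 0.4 to 0.657.

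**Figure D4:**
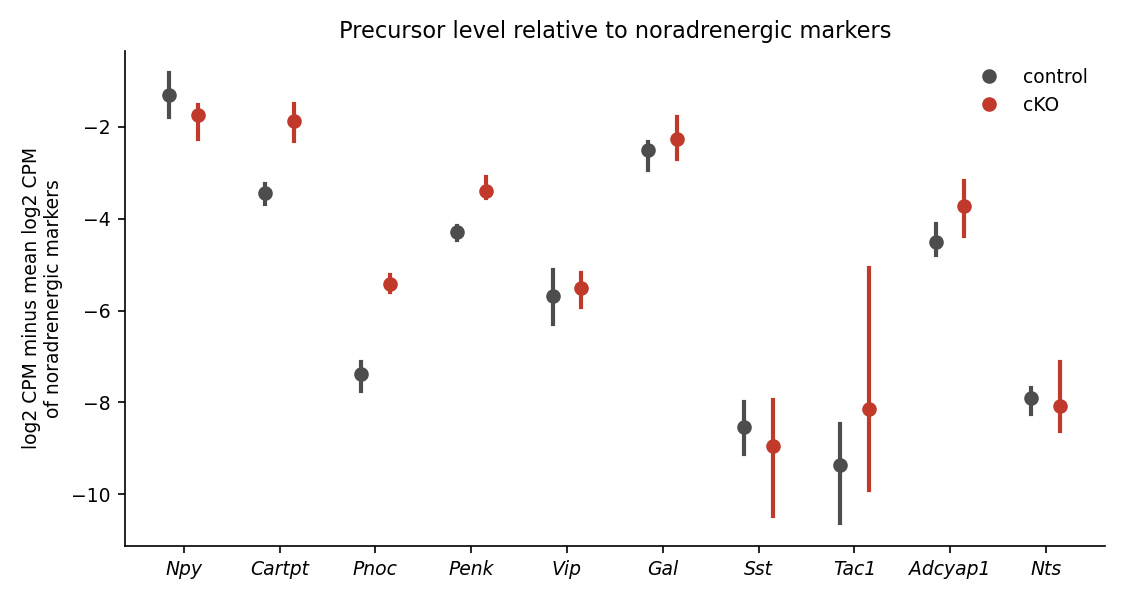
Precursor level relative to the noradrenergic markers, as log2 CPM minus the mean log2 CPM of 12 markers (vertical axis), with the mean (point) and the lowest to highest library (line) of the 4 control (grey) and 4 cKO (red) libraries. The ranges are apart for Cartpt, Pnoc and Penk, which were already apart in CPM, and overlap for the other precursors. The share of all tested genes apart on this scale was not computed.

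Levels of different genes were compared as CPM per kilobase of annotated exon. In control ganglia Npy was highest at 239 ± 54.8 CPM per kb, followed by Gal at 73.5 ± 7.33, Cartpt at 23.9 ± 1.93 and Penk at 10.3 ± 1.90 CPM per kb (SD, n = 4), and the ranges of these neighbours were apart. Adcyap1 at 3.85 CPM per kb, Vip at 1.98, Sst at 1.12, Nts at 1.04 and Pnoc at 0.879 CPM per kb followed with ranges that overlapped from each to the next. Tac1 was lowest at 0.129 CPM per kb, below Pnoc in each library. In cKO ganglia the order of the first 5 was the same, but Gal and Cartpt, at 81.2 ± 21.1 and 64.8 ± 14.7 CPM per kb (SD, n = 4), overlapped. Pnoc, at 3.19 ± 0.172 CPM per kb, moved up to rank 6, apart from both Adcyap1 above it and Vip below.

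The sum of the 10 precursors was 356 ± 59.0 CPM per kb in control and 338 ± 32.2 CPM per kb in cKO ganglia (SD, n = 4), with overlapping libraries. Within it Npy made up 63.9% to 72.4% in control and 39.5% to 56.7% in cKO libraries. Cartpt made up 6.06% to 7.65% in control and 14.9% to 29.6% in cKO libraries, and Gal 17.7% to 22.6% and 18.6% to 29.1%. The cKO 3 library had the lowest share of Npy and the highest of Cartpt. As the shares add to the same total, they are not independent of each other, and the CPM of Npy itself overlapped between the groups.

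**Figure D5:**
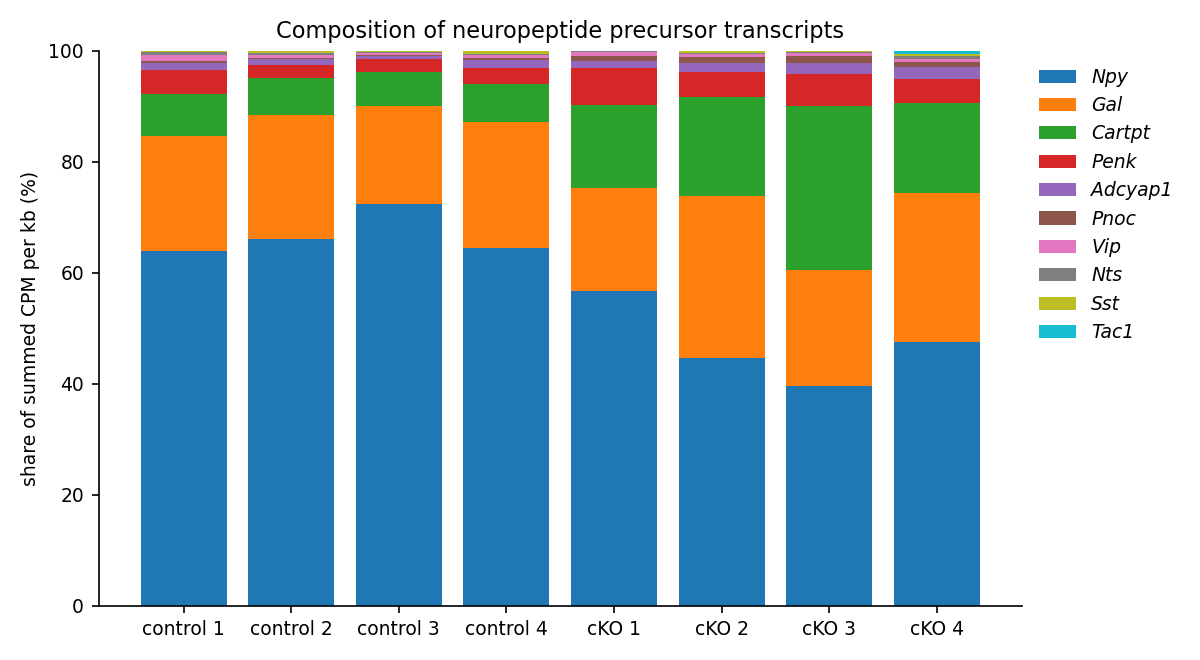
Share of each precursor in the summed CPM per kb of the 10 precursors (stacked bars, in %), 1 bar per library. The Npy part is at least 63.9% in the 4 control bars and at most 56.7% in the 4 cKO bars, and the Cartpt part is at most 7.65% and at least 14.9%. Shares of the same total depend on each other, and the CPM of Npy itself overlapped between the groups.

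Other neuropeptide and peptide hormone precursors were read from a list of 52 genes, of which 21 were tested, 5 were at 0 in every library and 26 were counted but too low to test. Of the 21, 2 rose and none fell: Nppb, the precursor of B-type natriuretic peptide, by 0.79 (SE 0.17, edgeR adjusted p = 0.0403), and Adm, the precursor of the vasodilator adrenomedullin, by 0.77 (SE 0.17, edgeR adjusted p = 0.0433). Nppb went from 2.56 ± 0.333 to 4.42 ± 0.495 CPM and Adm from 17.0 ± 0.966 to 28.9 ± 7.31 CPM (SD, n = 4). The median log2 fold change of the 21 was -0.12. Pdyn, another opioid precursor, had 4.24 ± 1.25 CPM in control ganglia and 3.89 ± 0.548 CPM in those of cKO animals (SD, n = 4; log2 fold change -0.12, SE 0.23).

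None of 15 tested receptors for the member peptides, of 26 listed, passed, and their median log2 fold change was 0.04. The smallest p belonged to Npy2r, a receptor for neuropeptide Y, with a log2 difference of 0.98 (SE 0.24, edgeR adjusted p = 0.0549). Among receptors with an annotated exon length the highest levels per length were those of Adcyap1r1, the PACAP receptor, at 55.6 ± 11.1 CPM per kb in control and 52.8 ± 12.5 in cKO ganglia, and of Oprl1, the nociceptin receptor, at 27.2 ± 1.80 and 25.0 ± 1.89 CPM per kb (SD, n = 4). Oprl1 showed a log2 difference of -0.12 (SE 0.10, edgeR adjusted p = 0.605) beside the rise of its ligand's gene Pnoc. The classical opioid receptor genes Oprm1, Oprd1 and Oprk1, which bind enkephalins or dynorphins, were all too low to test.

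Among 20 genes for peptide processing and granule proteins 1 rose and none fell. Pcsk6, a proprotein convertase of the secretory pathway, rose by 0.98 on the log2 scale (SE 0.19, edgeR adjusted p = 0.0273), from 3.23 ± 0.766 to 6.37 ± 0.789 CPM (SD, n = 4). The prohormone convertases of dense-core vesicles, Pcsk1 and Pcsk2, showed log2 differences of -0.61 (SE 0.19) and 0.38 (SE 0.18), and for Cpe, which trims the cut ends, the difference was -0.08 (SE 0.09). None of these 3 passed. The median of the 20 was 0.04.

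The genes whose deviations from their group means ran most like those of a precursor over the 8 libraries were listed for Npy and for the 3 precursors that rose, out of 11732 genes at 5 CPM or more. For Npy they were H2-Aa (r = 0.97), Nudt13 (0.949) and Lace1 (0.943), for Cartpt Phactr3 (0.946), Serinc3 (0.946) and Blcap (0.941), and for Pnoc Zfp326 (0.972), Dkk1 (0.964) and Cbln2 (0.964). For Penk they were Pabpc4 (0.996), Nfkbia (0.988) and the muscle actin gene Acta1 (0.982), the last of them a listed muscle marker. With 8 libraries and so many genes, high values of r are found for any gene, and the points share the depth and tissue makeup of their library. Among the precursors that rose, the same deviations correlated with r of -0.07 between Cartpt and Pnoc, -0.32 between Cartpt and Penk and 0.36 between Pnoc and Penk.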

How the data were processed

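For 8 libraries of polyadenylated RNA, the authors deposited raw counts, 1 row per symbol. STAR and mm10 are named in the submitters' processing notes. Neither the counter, nor its annotation, nor its strand setting is given there. Columns were matched to animals by title. The members and gene lists were chosen with earlier results of these data known.

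Counts of all genes were fitted with edgeR 4.0.16 (R 4.3.3), using filterByExpr, TMM factors, robust estimates and group alone as a term, and p-values were adjusted by Benjamini-Hochberg over the 14592 tested rows. SE is the absolute log2 fold change over the square root of F. CPM used TMM-scaled library sizes, and log2 CPM a prior count of 2. GENCODE vM21 (GRCm38, as mm10) gave positions and exon lengths. On simulated counts for this comparison over 14505 genes, the fit recovered 21.2% of 1.5-fold, 76.1% of 2-fold and 97.0% of 4-fold changes, with 5.15% false calls.

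Named genes were all members, Kif1b, Th and Dbh; per list up to 4 passing genes each way with the largest changes or else the 1 gene of lowest p; and 3 genes most like Npy and each called member. Of the genes so chosen, 2 are not reported here. Mrgpra3, Calca, Pdyn, Adcyap1r1, Oprl1, Oprm1, Oprd1, Oprk1, Pcsk1, Pcsk2 and Cpe were named after their values were seen. The alternatives were DESeq2 1.42.0 (Wald test and size factors), limma 3.58.1 voom with and without sample weights, library size alone, 2 other filters, a replicate block, each library left out, and animals 1 or animals 4 of both groups left out; for the relative levels, also a prior count of 0.5 and Th and Dbh as the only markers.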

Additional observations from a re-analysis of the deposited data

Results flagged for a closer look

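A library far from the other 3 of its group was looked for in 50 sets of values, the CPM of each precursor, Kif1b, Th and Dbh and the summed CPM of each list, in each group. It was found in 7, where chance gives about 1 in 20. Among precursors these were Penk in cKO 1 at 38.7 CPM, Gal in control 1 at 49.3 CPM, the lowest of its group, and Tac1 in cKO 4 at 8.20 CPM. Among lists they were the summed peptide processing and granule genes in control 1 at 4710 CPM, sensory neuron markers in cKO 4 at 235 CPM, and muscle and cartilage markers in control 1 at 141 CPM and in cKO 1 at 273 CPM. Cartpt, Pnoc, Npy, Adcyap1, Vip, Sst and Nts had no such library in either group.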

How the results depend on the processing

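Cartpt and Pnoc rose under every alternative run for the fold changes. The number of precursors that rose was 3, and 2 to 3 with 1 library left out, 2 with the size factors of DESeq2 (Penk at 0.77, adjusted p = 0.0515) and 2 without control 4 and cKO 4 (Penk at 0.83, adjusted p = 0.178). The Wald test of DESeq2 also called Adcyap1, higher (0.67, adjusted p = 0.0402), and voom with sample weights called 1 precursor lower, Npy (-0.69, adjusted p = 0.0211). The cause was not tested. No precursor fell with any 1 library left out (0 to 0).

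Of all genes 397 passed, 234 higher and 163 lower. The count was 1012 with the Wald test (565 higher, 447 lower), 1539 with sample weights (883 and 656), and 65 without control 4 and cKO 4 (26 and 39). With 1 library left out it lay between 74 and 514 (higher 33 to 318, lower 40 to 196). Deviations of same-numbered libraries correlated at 0.725, 0.352, -0.302 and 0.265, not all above 0.1, so the numbers were not taken as a pairing. Number 1 correlated best with itself (0.242 at most with another number), and numbers 2, 3 and 4 did not. The replicate block gave 687 genes (425 and 262).

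Vip changed sign with library size alone (0.029), voom (0.047), sample weights (0.036), the replicate block (0.025) and without control 1 and cKO 1 (0.20), and lay between -0.21 and 0.29 with 1 library left out; Gal was -0.064 with sample weights. Relative to noradrenergic markers, Vip lay between -0.026 and 0.361 and Sst between -0.74 and 0.11 with 1 library left out. Counts of 2 to 39 per library limit Sst, Nts and control Pnoc.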
